A study of Mus musculus with 36 samples.

Results

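Respiratory complex I genes were taken as the protein-coding genes whose symbol begins with Nduf, which gave 48 genes among the 56748 of the deposited expression table, 21970 of them protein coding. By known role, 7 of the 48 encode core subunits made from nuclear DNA, 30 encode accessory subunits and 8 encode assembly factors (Ndufaf). The remaining 3 bear the name without belonging to these classes. Ndufa4 is a subunit now placed in complex IV, Ndufa4l2 is its close relative, and Ndufb11b is a copy of Ndufb11 that was listed at 0 reads in all 36 libraries and was not tested. The other 47 genes passed the filter on low values in every comparison. The rule used no measured value, and the class of each gene was taken from its known role.

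RNA sequencing was done on epididymal visceral white adipose tissue (visWAT) and liver from the same 18 male C57BL/6J mice, 1 library per mouse and tissue. All mice carried Mlkl alleles flanked by loxP sites, and Mlkl encodes the kinase-like protein that carries out necroptosis. Mlkl Adi-KO mice also carried Adipo-Cre, a transgene that acts in mature adipocytes, and WT mice were littermates without Cre, so that by design other cells of visWAT and the liver cells keep the gene in both genotypes. From 16 weeks of age the mice received normal chow diet (NCD) or high-fat diet (HFD) for 16 weeks, with 4 WT and 4 Mlkl Adi-KO mice on NCD and 5 WT and 5 Mlkl Adi-KO mice on HFD.

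Complex I is the entry point of the mitochondrial respiratory chain. It takes electrons from NADH, passes them along a chain of iron-sulfur clusters in its matrix arm to ubiquinone, and pumps protons through its membrane arm. The core subunits do this chemistry, those of the matrix arm being encoded in the nucleus and those of the membrane arm in mitochondrial DNA. Accessory subunits surround and stabilise the core, while assembly factors join or modify subunits and then leave. In white adipocytes the chain feeds lipid synthesis and storage as well as ATP production, and in hepatocytes it reoxidises the NADH of fatty acid oxidation.

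Each library held between 20875463 and 30322171 reads on genes. Adipoq, an adipocyte hormone, was at 743 to 1995 FPKM (fragments per kilobase, scaled to library size) in visWAT and 0 to 2.70 in liver, and Alb, the hepatocyte albumin gene, was at 25146 to 47072 in liver. In visWAT, Mlkl was at 3.91 to 6.28 FPKM in 8 of the 9 WT libraries and at 1.96 to 2.72 in the 9 libraries of Mlkl Adi-KO mice. The library labelled WT NCD mouse 182 went against its label with 2.29 FPKM (143 reads), and it also held the brown adipocyte genes Cidea at 72.5 and Elovl3 at 16.7 FPKM. That library was the highest of its group for 42 of the 47 tested members. In the library of WT NCD mouse 183, 18.5% of the reads came from seminal vesicle genes, and it was the lowest of its group for 33 of the 47 members. For both libraries the same count over all genes is not given here. The liver library of WT NCD mouse 182 also stood apart, with a chi-square of 107 to 123 per gene against the other livers of its group (12.1 to 20.7 among those) and Elovl3 at 2.93 FPKM against 310 to 414. Main counts, some lists and some leading genes that rest on these libraries are given with and without them. Class counts, marker lists and the remaining genes are given with all libraries.

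Few members had little read support. Ndufa4l2 had 26 to 650 reads per library, Ndufaf5 61 to 274, Ndufaf6 85 to 330 and Ndufb2 116 to 265. Ndufa11, Ndufa12, Ndufs5, Ndufb4, Ndufs6 and Ndufab1 have near-identical copies in the annotation. How reads that fit several genes were counted is not given in the sources used here, so the levels of these genes are less certain.

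Nuclear respiratory genes are known to be driven by NRF1, by ETS-family GABP, by the oestrogen-related receptors and by YY1. The promoters of the 48 genes were searched for the letters of each (250 bases before to 50 bases after the start, both strands, GRCm39 with GENCODE 39 starts). The NRF1 letters GCGCATGC occurred in 4 of 48 promoters, those of Ndufa6, Ndufa13, Ndufaf4 and Ndufaf5. That is 8.33% of the 48 and, for the 37 core and accessory genes alone, 5.41%, against 3.69% of 21757 promoters. The YY1 letters AAGATGGCG occurred in 2 (4.17% against 1.34%), those of Ndufa9 and Ndufaf8, and the oestrogen-related receptor letters CAAGGTCA in 1 (2.08% against 1.58%), that of Ndufs5. The ETS letters CCGGAAGT occurred in none, against 4.35% of all promoters. The NRF1 letters read GCATGCGC on the opposite strand and overlap themselves by most of their length. A match is a run of letters and not a measured binding site. A pair of the 4 promoters with the NRF1 letters is printed, as the genes behind them are returned to below. Ndufaf4 was the sole member to rise in liver on HFD, and Ndufa6 was among the members lowest in visWAT against liver. The pair was thus picked by its results, and no link between letters and results was tested. The other genes with these letters, Ndufa13 and Ndufaf5, passed the diet test in liver of neither genotype with all mice. Ndufaf6, Ndufs1 and Ndufa4, also returned to below, held none of the searched letters. Each run is the 120 bases before the start, with the NRF1 letters in either orientation in capitals, at chr4:24897961-24898080 on the plus strand for Ndufaf4 and chr15:82238524-82238643 on the minus strand for Ndufa6.
Ndufaf4: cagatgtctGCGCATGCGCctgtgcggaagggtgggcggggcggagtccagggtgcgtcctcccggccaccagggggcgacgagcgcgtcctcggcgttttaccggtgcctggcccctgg
Ndufa6: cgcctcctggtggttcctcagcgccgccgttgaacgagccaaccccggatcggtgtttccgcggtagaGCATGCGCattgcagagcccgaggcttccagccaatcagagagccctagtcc

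The core and accessory genes were expressed well above the assembly genes in both tissues. In WT visWAT on NCD the median of the 7 core genes was 44.6 ± 10.9 FPKM (mean ± SD of the mice, n = 4), that of the 30 accessory genes 43.4 ± 9.25 and that of the 8 assembly genes 5.47 ± 1.25. In WT liver on NCD the same medians were 60.2 ± 2.4, 60.1 ± 1.69 and 7.91 ± 1.5. The spread in visWAT was mostly that of 1 library: the core median was 38.2, 43.3, 60.3 and 36.6 FPKM in mice 165, 180, 182 and 183.

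Within a class the genes spanned a wide range of levels. Of the core genes in WT visWAT on NCD, Ndufs1, the large subunit that holds several iron-sulfur clusters, had the lowest level (14.0 ± 6.32 FPKM). Ndufs3, Ndufs7, Ndufs8, Ndufv1 and Ndufv2 lay between 39.4 and 66.2 FPKM, with SDs of 6.69 to 26.3, and neighbours in that order did not differ beyond their spread. In WT liver on NCD the lowest core gene was again Ndufs1 (19.5 to 20.4 in the 4 mice). Among accessory genes, Ndufa2 (152 ± 12.5) and Ndufa1 (133 ± 35.6) were highest in WT visWAT on NCD and overlapped within their spread, and Ndufb2 was lowest (1.27 ± 0.236). The deposited gene length of Ndufb2 was 5628 bases, by which its reads were divided.

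**Figure D1:**
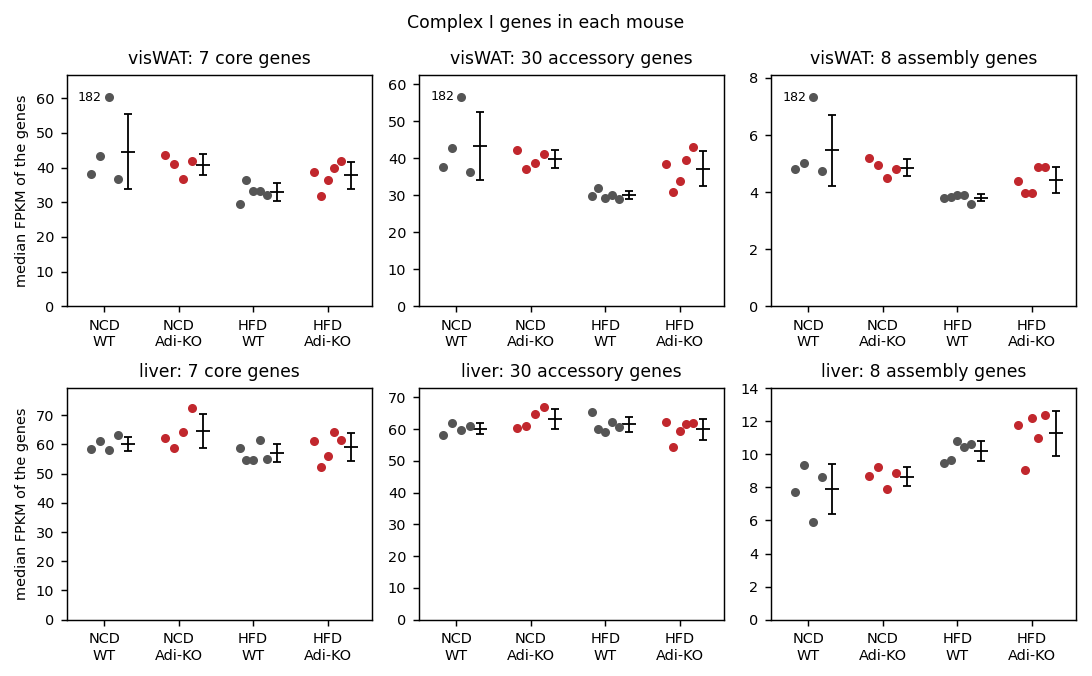
Median FPKM of the 7 core, 30 accessory and 8 assembly genes in each mouse (points; grey WT, red Mlkl Adi-KO), by diet and genotype, in visWAT (top) and liver (bottom), with the mean and SD beside each group (n = 4 on NCD, n = 5 on HFD). In visWAT the 5 HFD WT mice lie closely together below most other mice, and the library labelled mouse 182 is the highest NCD WT point. In liver the mean of the assembly median is higher on HFD, where Ndufaf4 was the sole assembly gene called.

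In visWAT of WT mice, many complex I genes were lower on HFD than on NCD as measured in FPKM, though none passed on the TPM scale described at the end of this comparison. Of the 47 members tested, 24 fell and 0 rose, where 15.8% of all genes tested were lower, 21.9% were higher and 37.8% passed in either direction (limma, adjusted p under 0.05). A positive log2 fold change was found for 2 of the 47 members and for 49.2% of all genes. In 23 members each HFD mouse lay below each NCD mouse, against 13.8% of all genes. The members' median log2 fold change was -0.41, against -0.01 over all genes. By class, 6 of 7 core genes fell (median -0.67), 15 of 30 accessory genes (median -0.41) and 2 of 8 assembly genes (median -0.29), the remaining call being Ndufa4. By position, 13 of the 16 nuclear genes of the matrix arm fell (median -0.59) and 7 of the 20 of the membrane arm (median -0.39).

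Ndufs1 (ENSMUSG00000025968, chr1:63182755-63215992) had a large difference among the core genes. It was at 11.5, 13.3, 23.0 and 8.33 FPKM in WT mice 165, 180, 182 and 183 on NCD, and at 6.88, 7.03, 7.21, 7.41 and 7.74 in the WT mice on HFD. The groups did not overlap, although mouse 183 came close to the HFD mice. Its log2 fold change was -0.78 (SE 0.223, limma adjusted p = 0.022), and -0.70 (SE 0.0718) without mice 182 and 183.

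Ndufv1 (ENSMUSG00000037916, chr19:4057384-4062806) encodes the subunit that binds NADH and flavin. It was at 52.4, 59.7, 105 and 47.7 FPKM on NCD and between 35.7 and 37.6 on HFD, again without overlap (log2 fold change -0.76, SE 0.201, limma adjusted p = 0.0152). Its neighbour in the NADH module, Ndufv2 (chr17:66385633-66408554), fell by 0.61 on the log2 scale (SE 0.139, limma adjusted p = 0.00737).

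Of the genes at the ubiquinone end, Ndufs7 (ENSMUSG00000020153, chr10:80084955-80092628), which holds the last iron-sulfur cluster, was the most evenly spread. It was at 53.7, 60.7, 68.9 and 56.1 FPKM on NCD and between 34.9 and 39.6 on HFD (log2 fold change -0.67, SE 0.0892, limma adjusted p = 0.000332). Ndufs3 (chr2:90724978-90735171) fell by 0.59 (SE 0.137). Every core gene that fell was lower in each HFD mouse than in each NCD mouse, for which the exact two-sided permutation p was 0.0159, the smallest that 4 against 5 mice allow.

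Ndufs8 (ENSMUSG00000059734, chr19:3958863-3962774), also an iron-sulfur subunit of this end, did not pass. It was at 29.3, 40.2, 55 and 33.2 FPKM on NCD and between 29.5 and 36.7 on HFD, so the groups overlapped (log2 fold change -0.22, SE 0.165, limma adjusted p = 0.331).

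Of the accessory genes, those with the lowest log2 fold changes were Ndufa5, Ndufb8 and Ndufa12. Ndufa5, a matrix-arm subunit, was at 37.6, 45.8, 58.0 and 36.6 FPKM on NCD and between 22.9 and 25.0 on HFD (log2 fold change -0.84, SE 0.129, limma adjusted p = 0.000817). Ndufb8, a membrane-arm subunit widely used as a protein marker of the assembled complex, was at 32, 39.1, 45.2 and 32.4 on NCD and between 19.9 and 21.3 on HFD (log2 fold change -0.80, SE 0.105). Ndufa12 (ENSMUSG00000020022, chr10:94034582-94057305), which sits in the matrix arm, was at 12.4 to 17.3 on NCD and 7.25 to 9.29 on HFD (log2 fold change -0.78, SE 0.104). In none of these genes did the diets overlap. At the other end, Ndufb3 had a log2 fold change of 0.09 (SE 0.153), Ndufa8 of -0.04 (SE 0.159) and Ndufb2 of -0.16 (SE 0.0827), and none of them passed. The acyl carrier protein Ndufab1, which also serves mitochondrial fatty acid synthesis, fell by 0.57 (SE 0.194, limma adjusted p = 0.0447).

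The assembly genes that fell were Ndufaf7, a mitochondrial protein methyltransferase, and Ndufaf3, an early factor of the matrix arm. Ndufaf7 was at 5.81, 6.01, 8.68 and 5.49 FPKM on NCD and between 3.99 and 4.38 on HFD (log2 fold change -0.52, SE 0.111, limma adjusted p = 0.00536). Ndufaf3 fell by 0.32 (SE 0.0886, limma adjusted p = 0.0193). Ndufaf1 (log2 fold change -0.45, SE 0.167) and Ndufaf5 (-0.32, SE 0.129), which hydroxylates Ndufs7, did not pass, and Ndufaf2, a late factor related to Ndufa12, was at -0.11 (SE 0.135). Without mice 182 and 183, Ndufaf1 passed (-0.44, limma adjusted p = 0.00873). Of the genes outside the classes, Ndufa4 fell by 0.69 (SE 0.137, limma adjusted p = 0.00361) and Ndufa4l2, a relative known to be induced by hypoxia, had a log2 fold change of 0.11 (SE 0.135).

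Other genes of the respiratory chain were lower beside them. Of the 7 complex I subunits encoded in mitochondrial DNA, 5 fell (median -1.28), among them mt-Nd4l by 2.02 (SE 0.409) and mt-Nd5 by 1.42 (SE 0.28). Their summed level was 32025 FPKM in the library labelled mouse 182 and 10916 to 21588 in the other NCD mice, and without mice 182 and 183, 6 fell (median -1.29). Of 35 tested nuclear genes of complexes II to V, 16 fell (median -0.49), and of 20 genes for other mitochondrial functions, 6 fell (median -0.21). Without mice 182 and 183 these counts were 26 (median -0.42) and 9 (median -0.12), and 1 gene of complexes II to V rose. Of 8 complex I assembly genes not named Nduf, 4 fell, namely Foxred1 (-0.62), Ecsit (-0.50), Tmem186 (-0.49) and Nubpl (-0.29). Of 13 regulators of mitochondrial gene expression, 4 fell, among them the nuclear receptor corepressor Nrip1 (-1.09) and the mitochondrial transcription factor Tfam (-0.28), and 1 rose, the coactivator Pprc1 (0.39). Nrf1 (0.03) and Esrra (-0.08), which bind letters searched above, did not pass.

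RNA markers of cell types in the depot moved with the diet. All 12 macrophage markers rose (median log2 fold change 2.92), their summed level being 349 to 460 FPKM on NCD and 2752 to 3938 on HFD, while 8 of 14 mature adipocyte markers fell and 1 rose (median -0.69), summed 11243 to 22783 on NCD and 5664 to 7158 on HFD. In whole tissue, fewer cells of a type and less RNA per cell cannot be told apart, and the part of these shifts in the complex I result was not tested. Without the library labelled mouse 182, 25 members fell, without mouse 183, 35, and without both, 30 (median -0.36, all genes 0.01). The share of all genes called in these fits is not given here. Without both, Ndufa5 had a log2 fold change of -0.77, Ndufb8 of -0.75, Ndufa12 of -0.68, Ndufs7 of -0.61, Ndufv1 of -0.59 and Ndufaf7 of -0.42, each past the threshold. The TPM scale divides each library by its sum of FPKM, so that every library has the same sum over genes. That sum was 564718 in the library of mouse 183 and 227793 to 309820 in the other visWAT libraries. On the TPM scale with all libraries 0 members passed. Their median was 0.04 while that of all genes was 0.35, and 44 of 47 members lay below the all-gene median. TPM without both libraries, an alternative chosen after seeing the data, gave 24 members lower (median -0.24, all genes 0.10).

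In Mlkl Adi-KO mice the same diet comparison called fewer members. On HFD 5 of 47 members fell and 0 rose, where 20.3% of all genes were lower, 23.3% higher and 43.7% passed in either direction. The members' median log2 fold change was -0.02, and 21 of 47 were positive, against 51.1% of all genes. Ndufs1 was at 12.9, 12.4, 11.7 and 11.6 FPKM on NCD and 7.73, 7.28, 8.09, 9.03 and 8.74 on HFD (log2 fold change -0.52, SE 0.0683, limma adjusted p = 0.000657). Every HFD mouse was lower than every NCD mouse for this gene. Among the other calls, Ndufv2 fell by 0.34 (SE 0.0885), the accessory Ndufa10, a membrane-arm subunit related to nucleoside kinases, by 0.29 (SE 0.1), and Ndufaf7 by 0.26 (SE 0.0805). The WT and Mlkl Adi-KO diet comparisons share no mice, and 4 members fell in both, among them Ndufs1, Ndufv2 and Ndufaf7, which is 16.7% of the WT calls and 80.0% of the Mlkl Adi-KO calls. Ndufa10 had a log2 fold change of -0.70 in WT (SE 0.26, limma adjusted p = 0.0588). Without WT mice 182 and 183 it passed there too (-0.51, limma adjusted p = 0.00256). Leaving out a single mouse gave 2 to 8 calls, namely 2 without NCD mouse 179 or 199, 3 without NCD mouse 166 or HFD mouse 151, and 8 without HFD mouse 157. The direction of the calls also turned on single mice. Without HFD mouse 152, 3 members fell and 3 rose, Ndufa4l2 (0.45), Ndufa8 (0.39) and Ndufb3 (0.34). Without HFD mouse 153, 2 fell and 2 rose, Ndufa8 (0.36) and Ndufb3 (0.32), and without NCD mouse 166, 2 fell and Ndufaf4 rose (0.19). With TPM 13 members passed, 2 higher and 11 lower.

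**Figure D2:**
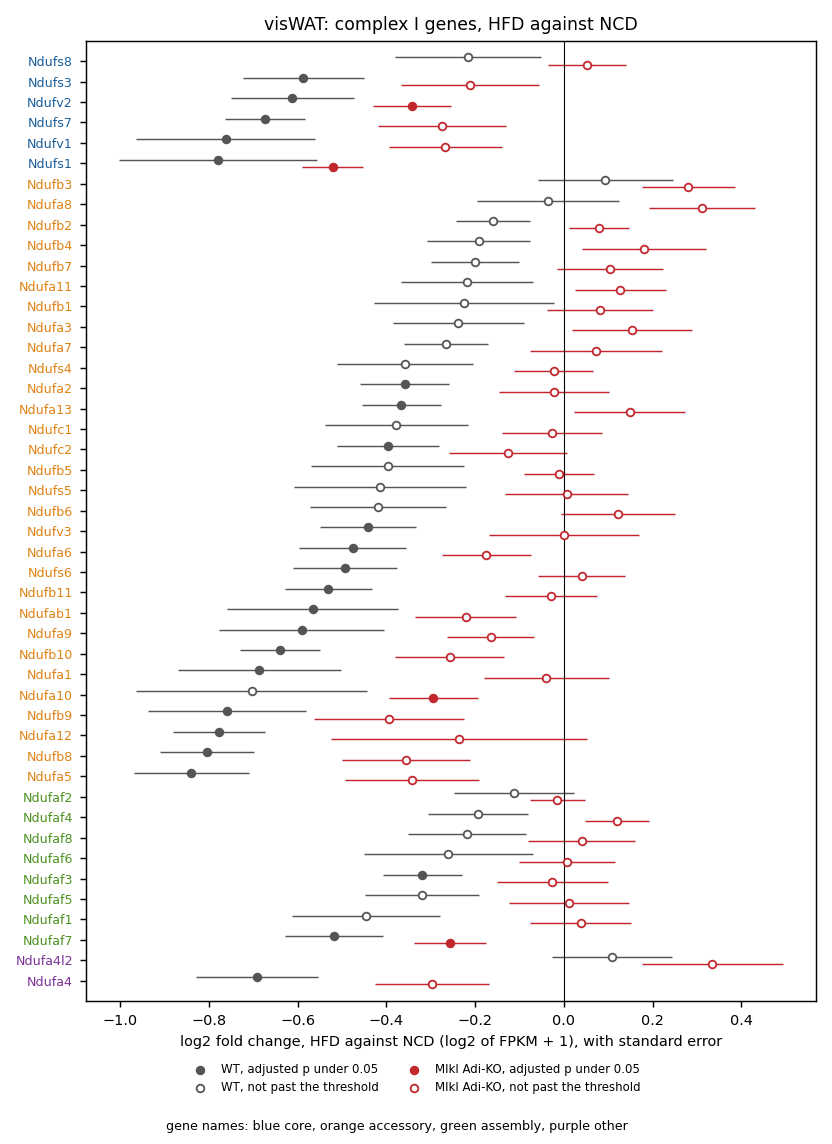
Log2 fold change of complex I genes, HFD against NCD, in visWAT of WT (grey) and Mlkl Adi-KO mice (red), with its standard error; filled points passed an adjusted p of 0.05. On this FPKM scale the grey points lie left of 0 for nearly every gene shown, and the red points lie on both sides of it, with few filled.

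The Mlkl Adi-KO mice on HFD did not form a single level. They were compared on the members, and the same count over all genes is not given here. Of the 47 members, 37 lay below all 4 NCD Mlkl Adi-KO mice in mouse 152 and 31 in mouse 153. That number was 13 in mouse 151, 9 in mouse 156 and 7 in mouse 157. Ndufs7 showed this at 54.2, 35.2, 38.3, 52.6 and 54.6 FPKM in mice 151, 152, 153, 156 and 157, against 52.3 to 60.7 in Mlkl Adi-KO mice on NCD. It did not pass (log2 fold change -0.27). The same mice differed in cell markers. Adipoq was at 1828, 1994 and 1947 FPKM in mice 151, 156 and 157 and at 1018 and 891 in mice 152 and 153, while the macrophage gene Adgre1 was at 41.7, 22.1 and 18.1 in the former and 84.3 and 93.3 in the latter. Between diets 10 of 12 macrophage markers rose in this genotype (summed 426 to 707 FPKM on NCD and 1181 to 3546 on HFD), and 6 of 14 adipocyte markers fell while 2 rose (17664 to 22346 and 6372 to 13494). Their part in the complex I values was not tested. Of the mitochondrially encoded subunits, 4 of 7 fell (median -0.58), and of complexes II to V, 8 of 35 (median -0.11).

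The difference between the diet responses was tested as an interaction over all 18 visWAT libraries. No member passed it (limma, 0 of 47, 0% of all genes). The interaction was positive, that is, the response was less negative in Mlkl Adi-KO mice, for 47 of 47 members and 48.2% of all genes. The members' median was 0.35, and 14 members had an unadjusted p under 0.05, against 4.17% of all genes in that direction. That count was 6 without mouse 182, 37 without mouse 183, 7 without both and 0 with TPM. The share of all genes in these fits is not given here. The core genes ranged from 0.26 to 0.50. With all libraries the sign depended on the scale. With TPM 9 of 47 were positive (median -0.10, all genes -0.37), and all 47 remained above the all-gene median. Without the libraries of mice 182 and 183, 46 were positive (median 0.31). TPM without both, an alternative chosen after seeing the data, gave 45 positive (median 0.19, all genes -0.11).

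Between genotypes on HFD, no complex I gene differed in visWAT by the test across all genes (limma, 0 of 47, 0.0215% of all genes), with adjusted p of 0.221 to 0.827. Every tested member nevertheless had the higher mean log2 value in Mlkl Adi-KO mice. That was 47 of 47 positive log2 fold changes against 49.8% of all genes, with a median of 0.29 against 0.00. An unadjusted p under 0.05 was found for 37 members, namely 5 core, 28 accessory and 3 assembly genes and 1 other, against 10.5% of all genes in that direction. In 5 members, all accessory, the genotypes did not overlap, against 1.42% of all genes in that direction. The count at an unadjusted p under 0.05 was 23 without Mlkl Adi-KO mouse 156, without Mlkl Adi-KO mouse 157 or without WT mouse 154, 23 with a shared spread and 24 with TPM. The edgeR test on recovered reads called 0 members (0.0215% of all genes), and DESeq2 called 4, all higher in Mlkl Adi-KO, where it called 0.609% of all genes higher. These were Ndufa12, Ndufb2, Ndufs6 and Ndufb10. This comparison shares its WT mice with the WT diet comparison above and its Mlkl Adi-KO mice with the Mlkl Adi-KO diet comparison.

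Ndufa12 had the largest difference. It was at 11.5, 21.7, 9.32, 17.6 and 18.5 FPKM in Mlkl Adi-KO mice 151, 152, 153, 156 and 157 and at 7.25, 9.16, 8, 9.29 and 8.07 in WT mice. The groups did not overlap, by the margin of mouse 153 over the highest WT mouse. The log2 fold change was 0.78 (SE 0.198, limma adjusted p = 0.221, range over alternatives 0.00723 to 0.42), with an exact two-sided permutation p of 0.00794, the smallest possible for 5 against 5. On NCD the same gene was at 25.2, 11.5, 23.3 and 14.9 FPKM in Mlkl Adi-KO mice and between 12.4 and 17.3 in WT mice, which overlapped (log2 fold change 0.24, SE 0.237). Its level was highest in mouse 152, a low mouse for Ndufs7.

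Ndufa5 was at 38.1, 26.3, 25.3, 39.4 and 40.5 FPKM in the Mlkl Adi-KO mice on HFD and between 22.9 and 25.0 in WT (log2 fold change 0.45, SE 0.135). Here mice 152 and 153 lay just above WT and the other 3 far above it. Ndufv1, at 49.1, 36.5, 40.0, 53.5 and 56.5 against 35.7 to 37.6, overlapped WT through mouse 152 (log2 fold change 0.33, SE 0.113). Ndufs1 had the smallest core difference, 0.15 (SE 0.061, limma adjusted p = 0.222). Of the assembly genes Ndufaf8, the partner of Ndufaf5, had the highest value (0.33) and Ndufaf2 the lowest (0.03), and Ndufa4l2 was at 10.1 to 18.1 FPKM against 10.8 to 13.5 in WT (0.28).

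**Figure D3:**
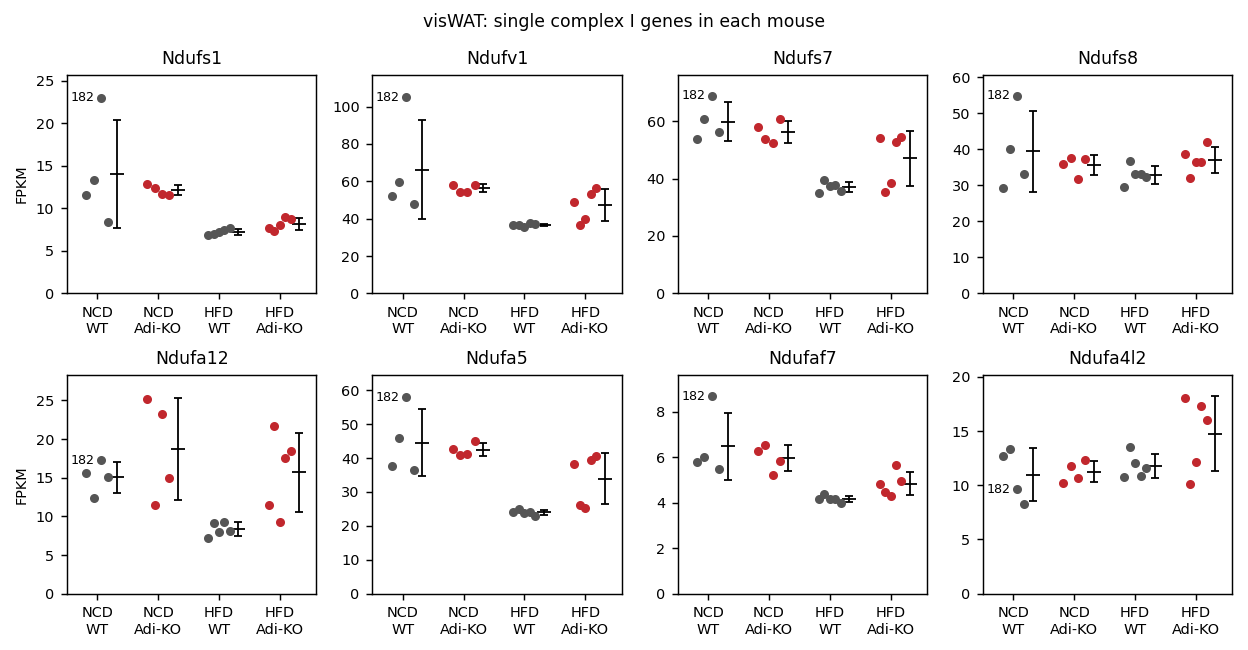
FPKM of 8 complex I genes in visWAT of each mouse (points; grey WT, red Mlkl Adi-KO), with the mean and SD of each group (n = 4 on NCD, n = 5 on HFD). The HFD WT points are tightly grouped, the HFD Mlkl Adi-KO points of Ndufs7, Ndufv1 and Ndufa5 split into 3 high and 2 low mice, and Ndufa12 has the low mouse 153 and the high mouse 152.

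Counted per mouse, 44, 45 and 46 of the 47 members lay above all 5 WT mice on HFD in Mlkl Adi-KO mice 151, 156 and 157. That number was 26 in mouse 153 and 6 in mouse 152. The same count over all genes is not given here, so a shift of many genes in a library is not set apart. The adipocyte markers, summed, were at 6372 to 13494 FPKM in Mlkl Adi-KO and 5664 to 7158 in WT on HFD, and the macrophage markers at 1181 to 3546 and 2752 to 3938. Of the adipocyte markers 12 of 14 had a positive log2 fold change between genotypes (median 0.41), and of the macrophage markers 0 of 12 (median -0.70), none past the threshold. All 7 hepatocyte markers had positive values (median 0.42) without a call, with Alb at 460 FPKM in mouse 156. Their part in the complex I values was not tested. Other lists showed values like those of the members without a call: 7 of 7 mitochondrially encoded subunits were positive (median 0.34), 34 of 35 genes of complexes II to V (median 0.24) and 19 of 20 other mitochondrial genes (median 0.18), while 5 of 12 regulators were (median -0.02). With TPM, 46 of 47 members were positive (median 0.19, all genes -0.09).

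On NCD no member differed between genotypes in visWAT (limma, 0 of 47, 0% of all genes), and 0 had an unadjusted p under 0.05, against 3.03% of all genes higher and 0.725% lower. The median log2 fold change was -0.08, with 8 of 47 positive, against 53.8% of all genes. With TPM 47 of 47 were positive (median 0.28, all genes 0.30). TPM without mice 182 and 183, added after seeing the data, gave 31 positive (median 0.01, all genes 0.03). Ndufs1 was at 11.6 to 12.9 FPKM in Mlkl Adi-KO mice, within the range of WT mice, and Ndufv1 at 54.2 to 58.0 likewise. Without the library labelled mouse 182, 34 of 47 were positive (median 0.05), and without those of mice 182 and 183, 18 were (median -0.01), so the direction turned on these libraries.

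In liver the response to diet was small for the subunits and upward for Ndufaf4. In WT mice 7 of 47 members passed, where 25.3% of all genes did, 13.2% higher and 12.1% lower. The median log2 fold change of the members was -0.07. The gene that rose was Ndufaf4 (ENSMUSG00000028261, chr4:24898083-24905001), an assembly factor that works with Ndufaf3 early in building the matrix arm, and its promoter with the NRF1 letters is printed above. It was at 8.47, 11.2, 6.36 and 8.85 FPKM on NCD and 13.8, 12.5, 14.6, 12.8 and 13.5 on HFD. Mouse 182, whose liver library stood apart, had the lowest value. The diets did not overlap (log2 fold change 0.59, SE 0.124, limma adjusted p = 0.00785, range over alternatives 8.26e-05 to 0.0218).

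In Mlkl Adi-KO liver Ndufaf4 was at 9.30, 9.29, 8.62 and 8.19 FPKM on NCD and 16.5, 12.3, 14.0, 14.2 and 18.2 on HFD, again without overlap (log2 fold change 0.69, SE 0.103, limma adjusted p = 0.00165, range over alternatives 1.79e-08 to 0.0068). It was the sole member to rise in either genotype by this test. In visWAT Ndufaf4 stayed at 3.08 to 5.39 FPKM over all 18 libraries, and it passed neither diet test there with all mice included. Its partner Ndufaf3 was at 7.10 ± 1.27 FPKM in WT liver on NCD and 7.77 ± 0.997 on HFD, well within the spread.

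**Figure D4:**
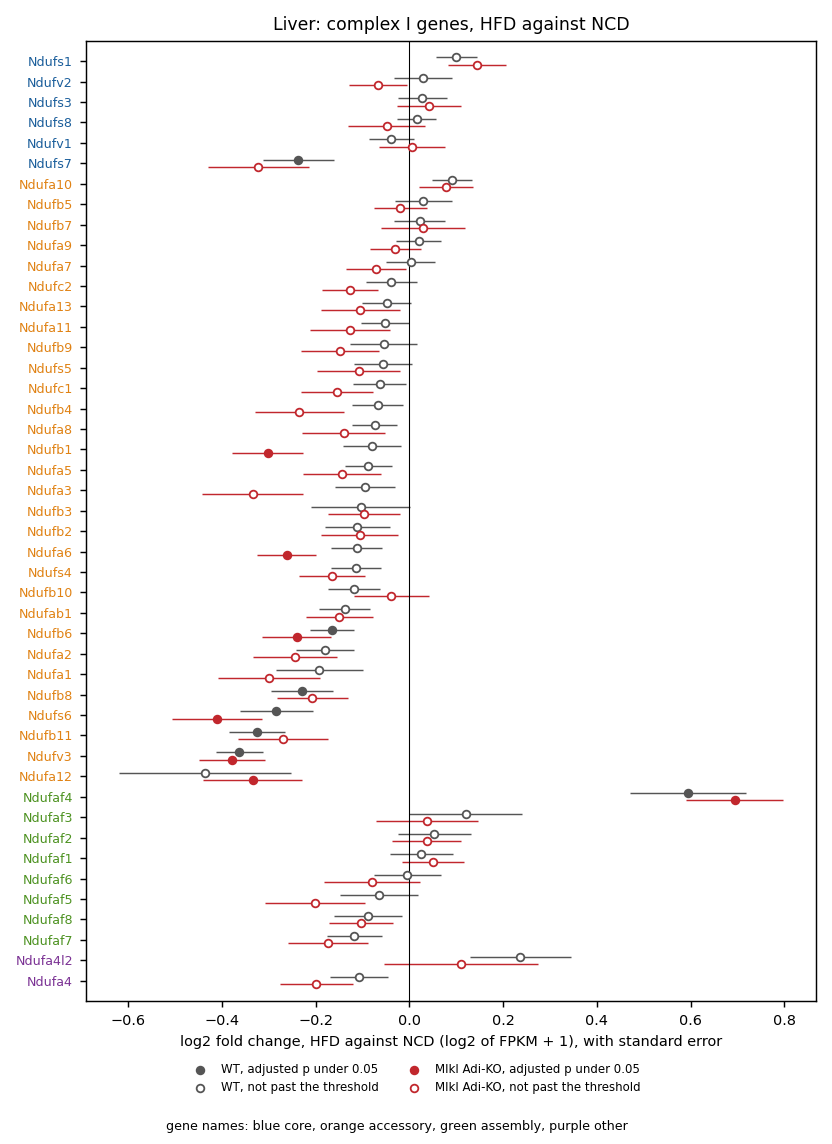
Log2 fold change of complex I genes, HFD against NCD, in liver of WT (grey) and Mlkl Adi-KO mice (red), with its standard error; filled points passed an adjusted p of 0.05. Ndufaf4 stands to the right in both genotypes at 0.59 and 0.69, and the filled subunit genes lie left of 0.

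The members that fell in WT liver were 5 accessory genes and Ndufs7. Ndufv3, a small subunit of the NADH module, was at 25.2, 26.8, 23.5 and 25.7 FPKM on NCD and 18.8 to 20.4 on HFD (log2 fold change -0.36, SE 0.0494, limma adjusted p = 0.000904). The membrane-arm genes Ndufb11 (-0.33, SE 0.0599), Ndufb8 (-0.23, SE 0.0658) and Ndufb6 (-0.16, SE 0.0465) fell, as did Ndufs6 (-0.28, SE 0.0779), which binds zinc in the matrix arm. Ndufs7, the sole core gene called, fell by 0.24 (SE 0.0758, limma adjusted p = 0.0473). Ndufs1 had a log2 fold change of 0.10 and did not pass. Without HFD mouse 155, 161 or 164 or NCD mouse 165 or 180, 4 members passed. Without NCD mouse 182, 8 passed, Ndufb3 (-0.22) among them, and Ndufaf4 had a log2 fold change of 0.47 (SE 0.0879).

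In Mlkl Adi-KO liver 7 of 47 members passed, where 22.2% of all genes did, 11.9% higher and 10.3% lower. Ndufv3 was at 26.5, 22.6, 27.2 and 28.0 FPKM on NCD and 19.0 to 20.7 on HFD (log2 fold change -0.38, SE 0.0697, limma adjusted p = 0.00466). Ndufs6 fell by 0.41 (SE 0.0959), Ndufa12 by 0.33 (SE 0.105), Ndufb1 by 0.30 (SE 0.076), Ndufa6 by 0.26 (SE 0.0629) and Ndufb6 by 0.24 (SE 0.0738). The genotypes share no mice here, and 4 calls were common to both (Ndufaf4, Ndufb6, Ndufs6 and Ndufv3), 57.1% of either list. Ndufs7 had a log2 fold change of -0.32 without passing (SE 0.107, limma adjusted p = 0.0573). Without NCD mouse 179, 12 members passed.

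Other lists in liver moved in part. Of the regulators, Ppargc1a, the coactivator that drives mitochondrial genes, fell in both genotypes (-1.09 in WT and -1.0 in Mlkl Adi-KO), and Esrra (0.44 and 0.60) and Ppara (0.68 and 0.89), the nuclear receptor of fatty acid oxidation, rose. Of assembly genes not named Nduf, Tmem186 rose in both (0.41 and 0.29). Of the nuclear genes of complexes II to V, 5 of 35 fell in WT and 8 of 35 in Mlkl Adi-KO. Of the mitochondrially encoded subunits 0 of 7 passed in WT, while mt-Nd5 (0.38) and mt-Nd6 (0.33) rose in Mlkl Adi-KO.

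Between genotypes, no complex I gene passed in liver. On HFD 0 of 47 members passed by limma (0.197% of all genes), with a median log2 fold change of -0.01 and 4 at an unadjusted p under 0.05, all lower in Mlkl Adi-KO, where 6.05% of all genes were. The lowest was Ndufs6 at -0.21 (limma adjusted p = 0.272). On NCD 0 of 47 passed (0.00758% of all genes), with a median of 0.04 and 1 member, Ndufa11 (0.19), higher at an unadjusted p under 0.05, against 2.18% of all genes. The interaction with diet called 0 of 47 (0.0151% of all genes), with a median of -0.06. The Cre transgene is meant to act in mature adipocytes, so deletion of Mlkl in liver is not part of the design. Liver levels of Mlkl are not given here, and whether the gene was intact in these livers was not tested.

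Between tissues, complex I genes stood lower in visWAT than in liver relative to other genes. The RNA of the tissues was extracted by different methods, so that tissue and extraction cannot be told apart. In WT mice on NCD 21 of 47 members passed, 3 higher and 18 lower in visWAT, where 31.5% of all genes were higher and 34% lower, and without the visWAT library labelled mouse 182, 36 passed. Without the liver library of that mouse, 17 passed. The share of all genes called with either library left out is not given here. In WT mice on HFD 43 passed, 2 higher and 41 lower, where 41.6% were higher and 43% lower. The members' median was -0.64 on HFD, against -0.01 over all genes. The direction of most members depended on the scale. With TPM, 39 passed on HFD, 30 of them higher, and the members' median was 0.36 while that of all genes was 0.83. Relative to the all-gene median, 42 of 47 members were lower on the FPKM scale and 40 on the TPM scale, and on NCD 36 and 33.

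The members at the ends kept their place on both scales on HFD. Ndufa4l2 was at 10.8 to 13.5 FPKM in visWAT and 1.63 to 2.64 in liver of WT mice on HFD (log2 fold change 2.0, SE 0.0969, limma adjusted p = 2.52e-09), and on NCD at 8.29 to 13.4 against 1.46 to 1.89 (2.13, SE 0.147). With TPM its HFD value was 2.93. Ndufaf6, an early assembly factor, was at 2.27 to 3.67 FPKM in visWAT and 11.8 to 14.1 in liver on HFD (-1.81, SE 0.0882, limma adjusted p = 2.67e-09). In both genes the tissues were far apart. Ndufaf4 (-1.71, SE 0.051), Ndufa6 (-1.60, SE 0.0507), Ndufs1 (-1.45, SE 0.0434) and Ndufa4 (-1.43, SE 0.0528) came next. With TPM these 5 genes remained lower in visWAT, at -0.89 for Ndufaf6, -0.77 for Ndufaf4, -0.53 for Ndufa6, -0.44 for Ndufs1 and -0.34 for Ndufa4.

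Ndufa6 (ENSMUSG00000022450, chr15:82234341-82238523), a matrix-arm subunit that binds the acyl carrier protein and whose promoter is printed above, had a mean of 25.8 ± 1.62 FPKM in visWAT and 80.2 ± 3.17 in liver of WT mice on HFD (n = 5 each), and 36.7 ± 7.03 and 86.9 ± 5.22 on NCD (n = 4 each; log2 fold change -1.24, SE 0.14). On NCD the core gene furthest apart was Ndufs8, which was lower in visWAT (-0.65, limma adjusted p = 0.0118). Its sign turned with TPM without mice 182 and 183 (0.24), and its adjusted p ran from 0.00049 to 0.972 over the alternatives. Ndufb3 was the other member higher in visWAT on HFD (0.37, SE 0.0569), and on NCD the members higher beside Ndufa4l2 were Ndufaf3 (0.53, SE 0.136) and Ndufb8 (0.35, SE 0.123).

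**Figure D5:**
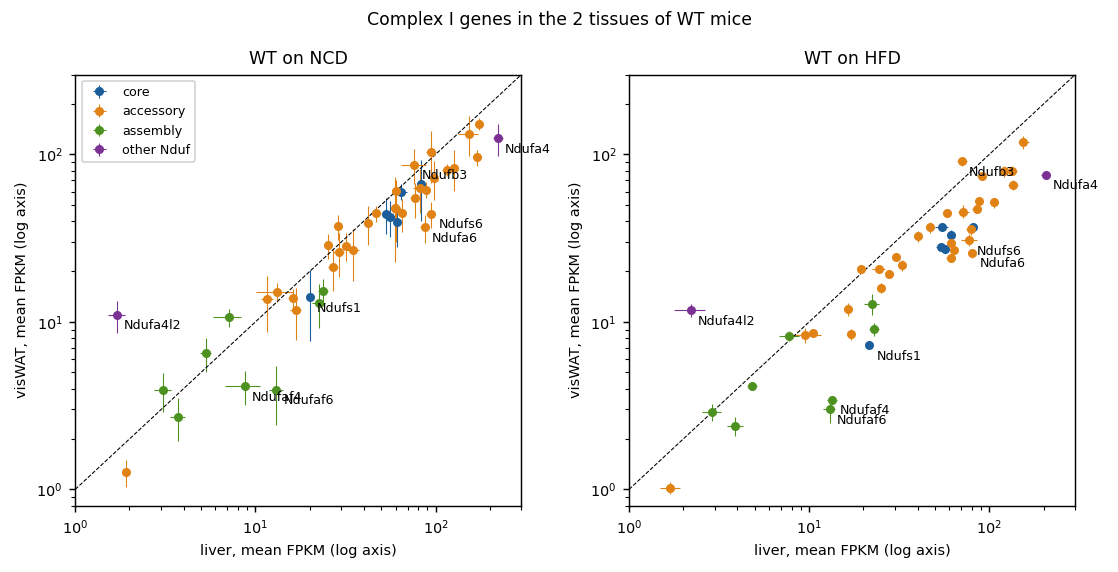
Mean FPKM of complex I genes in WT visWAT (vertical, log axis) against WT liver (horizontal, log axis), on NCD (left, n = 4) and HFD (right, n = 5), with SD bars; the dashed line marks equal FPKM. On this FPKM scale most genes lie below the line on HFD, Ndufa4l2 lies far above it, and Ndufaf6, Ndufaf4 and Ndufa6 lie furthest below.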

How the data were processed

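The authors selected polyadenylated RNA, aligned the reads by HISAT2 on the mm39 build (GRCm39) and assigned them to genes using featureCounts (1.5.0-p3). Strandedness and the handling of multi-mapping reads are not given in the sources used here. FPKM per gene and library, with the gene length, were deposited by the authors for all genes, and the counts deposited by the authors cover the genes in each of their comparison tables. Their fold changes, p-values and pathway tables, and 72 further columns of per-sample values, were not used. From genes with both values the library size behind the FPKM was obtained, and reads came out whole (within 0.01) for 100% of values. Divided by each library's reads on genes, that size was 1.01 to 1.40 for visWAT and 0.737 to 0.812 for liver libraries.

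Groups were compared with limma on log2(FPKM + 1) in the libraries compared, keeping genes whose mean FPKM reached 0.5, with Benjamini-Hochberg adjustment over all genes tested and a threshold of 0.05. Log2 fold changes are on this scale, on which changes of weakly expressed genes come out too small. The interaction used all 18 libraries of a tissue. Alternatives were a pseudocount of 0.1, other filters, FPKM rescaled to an equal sum (TPM), edgeR and DESeq2 on the recovered reads, a shared spread, the mouse as block, and leaving out libraries. Counts of members under alternatives are given without the share of all genes in the same fit, apart from edgeR and DESeq2 between genotypes in HFD visWAT. The members and gene lists were chosen with earlier results of these data known. Named genes are the core genes, apart from 1 member that enters the counts and is not reported here by itself, the 3 highest and 3 lowest accessory and assembly genes of each comparison, members called against the direction of their class, and the 3 genes outside the classes. Members outside this rule, such as Ndufab1, calls of DESeq2 or with a mouse left out, and the remaining calls in liver and in Mlkl Adi-KO visWAT, were named after their values were seen. visWAT and liver libraries with the same number were taken as the same mouse from their labels. In the WT mice the correlation of their deviations was -0.05 to 0.06, too small to serve as a check of this pairing. Replicate libraries of a group differed by a chi-square of at least 9.82 per gene, so no library was present in duplicate within its group. Libraries of different groups were not compared in this way. The tests were run on simulated data with known changes, which were larger than most of those described here. That check does not cover smaller differences. Promoters were read from GRCm39 with GENCODE 39 starts. Tools were R 4.3.3, limma 3.58.1, edgeR 4.0.16, DESeq2 1.42.0, numpy 2.4.6, pandas 2.3.3 and scipy 1.17.1.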

Additional observations from a re-analysis of the deposited data

Results flagged for a closer look

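Of 136 groups of 4 or 5 mice, 4 had a mouse whose gap to its nearest neighbour, as a share of the group's range, exceeded Dixon's critical value. Chance alone gives about 1 in 20. Ndufa12 in liver of Mlkl Adi-KO mice on NCD was lowest in mouse 166 at 11.1 FPKM, with the others at 13.6 to 13.9. Ndufa6 in liver of WT mice on HFD was lowest in mouse 155 at 74.8 FPKM, with the others at 80.6 to 82.8. Ndufaf4 in visWAT of Mlkl Adi-KO mice on NCD was highest in mouse 166 at 4.04 FPKM, with the others at 3.14 to 3.19. The median of the assembly genes in visWAT of WT mice on NCD was highest in the library labelled mouse 182 at 7.33 FPKM, with the others at 4.73 to 5.03.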

How the results depend on the processing

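For named genes that passed, and for those named between genotypes in HFD visWAT, 1085 values under alternatives kept their direction and their side of the threshold, 55 no longer passed, 2 newly passed and 14 changed sign. For the other named genes, none of which had passed, the sign changed in 75 of 230 values with TPM and in 113 of 2934 under other alternatives, and 26 and 45 values passed. On the TPM scale 0 members passed for diet in WT visWAT, 13 in Mlkl Adi-KO visWAT (2 higher, 11 lower), 15 in Mlkl Adi-KO liver and 7 between tissues on NCD. With DESeq2, 4 passed between genotypes in HFD visWAT, 8 for diet in Mlkl Adi-KO visWAT (2 higher, 6 lower) and 14 in Mlkl Adi-KO liver. A shared spread gave 15 in Mlkl Adi-KO liver, and no filter gave 2 in Mlkl Adi-KO visWAT. TPM without mice 182 and 183, added after seeing the data, gave 36 between tissues on NCD (34 higher, 2 lower). The cause of these shifts was not tested.

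Leaving out 1 library gave 18 to 35 members for diet in WT visWAT, 2 to 8 in Mlkl Adi-KO visWAT (3 of 6 higher without HFD mouse 152), 4 to 8 in WT liver, 5 to 12 in Mlkl Adi-KO liver, 16 to 36 between tissues on NCD and 43 to 44 on HFD. The genotype and interaction comparisons kept 0 members under each library left out. Signs changed with TPM between tissues on HFD for Ndufaf7 (0.75), Ndufs7 (0.54), Ndufs8 (0.19), Ndufv2 (0.15) and Ndufs3 (0.044), and on NCD for Ndufs3 (0.22). TPM without mice 182 and 183 did so on NCD for Ndufs3 (0.52), Ndufs8 (0.24), Ndufaf1 (0.20), Ndufa4 (0.10) and Ndufb11 (0.084). Ndufaf2 between genotypes in HFD visWAT was -0.055 with TPM and -0.019 to 0.062 with a library left out.

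With the mouse as replicate block, in the paired comparison of tissues, 18 members passed on NCD (2 higher, 16 lower) and 43 on HFD. The groups within a tissue hold different mice, so no pairing applied there. Genes with few reads, such as Ndufa4l2 in liver and Ndufaf5, are limited by counting error, and a small difference in them was not detectable at this depth.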
